A study of Mus musculus with 12 samples.

Results

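The 10 genes described here encode the core machinery of N6-methyladenosine (m6A), the methyl mark on internal adenosines of messenger RNA. They were taken by name from a table of RNA-seq counts of mouse whole kidney, which holds 54532 genes. All 10 were among the 24642 genes that passed the filter on low counts. They comprise the methyltransferase complex members Mettl3, Mettl14 and Wtap, the demethylases Fto and Alkbh5, and the YTH-domain readers Ythdf1, Ythdf2, Ythdf3, Ythdc1 and Ythdc2. The table measures RNA, so neither the proteins nor the m6A mark itself was measured.

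METTL3 transfers the methyl group of S-adenosylmethionine (SAM) to adenosine, METTL14 is its partner that holds the RNA, and WTAP brings the pair to nuclear speckles. FTO and ALKBH5 are the enzymes that remove the mark. Proteins with a YTH domain bind it: YTHDC1 acts in the nucleus on splicing and export, YTHDF proteins act in the cytoplasm on decay and translation, and YTHDC2 is an RNA helicase known from germ cells. In mouse polycystic kidney disease, METTL3 and methionine metabolism have been studied as promoters of cyst growth.

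The kidneys came from 12 mice of C57BL/6 J background, 18 days old, in 4 groups of 3. All of the mice carried 1 Pkd1 RC allele, a hypomorphic allele. The noncystic mice were labelled control and, per the study's methods, were Pkd1 RC/F without Cre (written Pkd1 RC/+), with Pkd2 +/+ (mice 19 to 21) or Pkd2 Δ17/Δ17 (mice 22 to 24). The cystic mice carried Ksp-Cre; Pkd1 RC/F, written Pkd1 RC/-, with Pkd2 +/+ (mice 25 to 27) or Pkd2 Δ17/Δ17 (mice 28 to 30). Ksp-Cre removes the floxed Pkd1 allele from kidney tubule epithelium, so other cell types of the cystic kidneys keep it, and the presence of Cre cannot be told apart from cystic disease. Δ17 is a CRISPR/Cas9 deletion of the miR-17 binding motif from the Pkd2 3′-UTR, made in the germline. The study's methods state equal numbers of males and females, and sex was not in the main fit. Litter was not used here, and the p-values measure the spread between these mice.

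miR-17-5p and the stretch it pairs with are shown because the deletion removes such a stretch from Pkd2, and because 2 of the 10 genes hold the same 7 letters. The mature miRNA (RefSeq, GRCm38.p6, chr14:115043684-115043706) has its seed, bases 2 to 8, in capitals. The sites are in the longest annotated 3′-UTR of each gene (GENCODE M21, GRCm38, plus strand), with the letters complementary to the seed, GCACTTT, in capitals.

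miR-17-5p: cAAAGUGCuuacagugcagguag

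Pkd2: ttgttataattttctGCACTTTa

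Alkbh5: gtagttgtgtgtgcaGCACTTTg

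Ythdf3: ctgtaacttcatgaaGCACTTTg

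The capitals lie at chr5:104503821-104503827 in Pkd2, at chr11:60555849-60555855 in Alkbh5 and at chr3:16214200-16214206 in Ythdf3. They begin 133 bases after the stop codon in Pkd2, 1434 in Alkbh5 and 222 in Ythdf3. Only the Pkd2 site of the 3 goes on with the A that makes it an 8-base match. Of 21018 genes with a 3′-UTR, 11.8% hold GCACTTT on the transcribed strand of the longest one. The other 8 of the 10 genes have no such letters in that UTR, which says nothing of miR-17 acting on them elsewhere. The deletion was made in Pkd2 only, so the Alkbh5 and Ythdf3 sites are intact in all 4 groups.

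Pkd2 itself was higher with Δ17/Δ17 in both cystic and noncystic kidneys, and passed the test in cystic kidneys and in the average of both. In cystic kidneys it was at 232.0, 232.9 and 213.2 CPM (counts-per-million, a gene's reads relative to all reads of the mouse, scaled by edgeR's TMM factors) with Pkd2 +/+ and at 336.6, 335.6 and 307.1 with Δ17/Δ17. In noncystic kidneys the values were 216.6, 193.8 and 219.0 against 277.0, 285.8 and 270.5. The log2 fold change in cystic kidneys was 0.53 (SE 0.08, adjusted p = 0.0025, edgeR's quasi-likelihood test). In noncystic kidneys it was 0.40 (SE 0.08, adjusted p = 0.771, edgeR's quasi-likelihood test), which did not pass. Its unadjusted p there was under 0.05, in a comparison where 0.00406% of all genes passed after adjustment. The groups did not overlap in either setting. Averaged over both settings the log2 fold change was 0.47 (SE 0.05, adjusted p = 0.0018, edgeR's quasi-likelihood test). The difference between the settings was 0.13 (SE 0.11, adjusted p = 0.82, edgeR's quasi-likelihood test) and did not pass.

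Total counts per mouse ran from 18800307 to 24453033, and each of the 10 genes had at least 164 and at most 3546 reads in a mouse. TMM factors ran from 0.933 to 0.972 for noncystic and from 1.04 to 1.08 for cystic libraries, so the groups were scaled differently and the totals are used below as an alternative. Cystic Pkd2 +/+ kidneys differed from noncystic ones in many marker genes: all 5 proximal tubule, 3 distal convoluted tubule and 4 podocyte markers fell, and all 4 macrophage and 4 proliferation markers rose. All 3 fat and 5 red blood cell markers fell as well, along with 2 of 4 endothelial and 1 of 4 lymphocyte markers. Of collecting duct and of fibroblast markers 2 of 4 rose each, and of thick ascending limb markers 1 rose and 2 fell. The summed proximal tubule markers were at 5890 to 7522 CPM in noncystic and 2090 to 3261 in cystic Pkd2 +/+ mice, and the macrophage markers at 87.5 to 91.7 and 186.5 to 244.0. The 4 adrenal gland genes summed to 37.2 CPM in mouse 27 and 276.3 in mouse 30, against at most 7.15 in the other mice. In whole kidney, fewer cells of a type and less RNA per cell cannot be told apart, and the part of these differences in the values below was not tested.

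Per kilobase of the longest coding transcript and averaged over the 4 groups, the nuclear reader Ythdc1 (27.2 CPM per kb), the eraser Alkbh5 (26.4), Wtap (23.2) and Ythdf3 (23.1) had the highest levels. Ythdf1 (16.6) and Fto (14.9) followed, then the catalytic subunit Mettl3 (10.6) and Ythdf2 (10.1). Mettl14 (3.91) and Ythdc2 (1.63) were lowest. This order depends on which length is used: per kilobase of all annotated exons Ythdc1 moved from rank 1 to rank 6. By the coding transcript, in each of the 4 groups the mice of Ythdc1 and Alkbh5 overlapped, as did those of Mettl3 and Ythdf2. By this length alone these neighbours did not differ beyond their spread. Per kilobase of all exons Ythdc1 was at 6.52 against 25.3 for Alkbh5, and Mettl3 at 4.21 against 9.13 for Ythdf2. By the coding transcript, Mettl14 and Ythdc2 stood below all other genes in every group without overlap. Within a group the coefficient of variation of the 10 genes was between 0.208% and 16.9%.

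**Figure D1:**
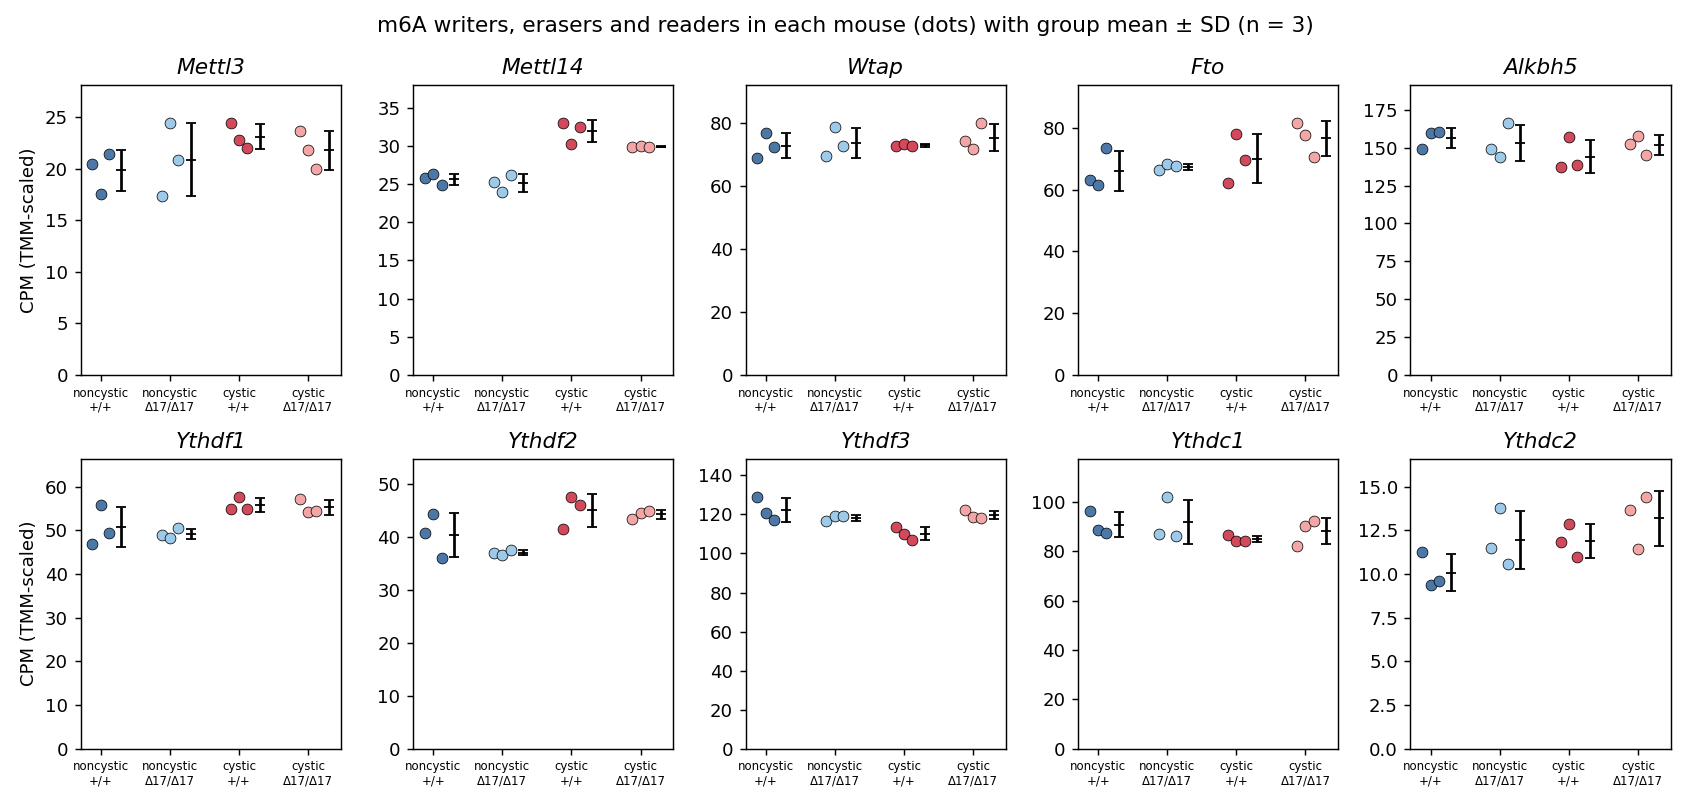
Level of each of the 10 genes (y axes, CPM scaled by TMM factors, from 0) in the 4 groups (x axes). Dots are mice, and the bars beside them are the mean ± SD (n = 3). Mettl14 was between 23.9 and 26.3 CPM in the 6 noncystic mice and between 29.8 and 33.0 in the 6 cystic mice.

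Cystic against noncystic kidneys with Pkd2 +/+ ask what the disease state does to these genes. Mettl14 rose, and the other 9 genes did not pass the threshold of an adjusted p under 0.05. Over all genes tested, 31.1% passed it in this comparison, so 1 of 10 is below the share of all genes. The median log2 fold change of the 10 genes was 0.11, and that of all genes 0.02. Of the 10 genes, 7 had a value above 0. No overlap between the groups was seen for Mettl3 and Mettl14, higher in cystic mice, and for Ythdf3 and Ythdc1, lower, where 41.7% of all genes did not overlap.

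Among the writers, Mettl14 (chromosome 3, 123368297 to 123386108, minus strand) was at 25.8, 26.3 and 24.8 CPM in noncystic and at 33.0, 30.3 and 32.5 in cystic Pkd2 +/+ kidneys. Every cystic mouse was above every noncystic one. The mean rose from 25.6 ± 0.74 to 31.9 ± 1.47 CPM (SD, n = 3), a 1.25-fold difference with a log2 fold change of 0.32 (SE 0.08, 95% interval 0.14 to 0.49, adjusted p = 0.00639, edgeR's quasi-likelihood test). Its call held in all 21 alternative fits, with log2 fold changes of 0.28 to 0.48.

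Mettl3 (chromosome 14, 52294841 to 52305128, minus strand) was at 20.5, 17.6 and 21.4 CPM in noncystic and at 24.4, 22.8 and 22.04 in cystic Pkd2 +/+ kidneys. The groups did not overlap but lay close, and mouse 20 was the lowest. The log2 fold change was 0.22 (SE 0.12, 95% interval -0.04 to 0.48, adjusted p = 0.209, edgeR's quasi-likelihood test), and it was 0.12 without mouse 20. Of the exonic bases of Mettl3, 18.4% overlap Tox4 on the opposite strand, and the strand setting of the counting is not given in the sources used here, so part of this value is uncertain. Wtap (chromosome 17, 12966796 to 12994169, minus strand) was at 69.0, 76.9 and 72.6 against 72.7, 73.4 and 72.9 CPM. Its cystic mice fell within the range of the noncystic ones, and the log2 fold change was 0.00 (95% interval -0.15 to 0.16).

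Neither eraser passed the test. Fto (chromosome 8, 91313525 to 91668439, plus strand) was at 63.2, 61.4 and 73.6 CPM in noncystic and 62.3, 78.1 and 69.5 in cystic Pkd2 +/+ kidneys. Its log2 fold change was 0.08 (95% interval -0.11 to 0.28). Alkbh5 (chromosome 11, 60536381 to 60558512, plus strand) was at 149.1, 159.7 and 160.4 against 137.3, 156.9 and 138.4 CPM, a log2 fold change of -0.12 (95% interval -0.29 to 0.05). For both erasers the groups overlapped. Alkbh5 pointed upward when libraries were scaled by their totals, as given below.

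The readers spread to both sides of 0. Ythdf3 (chromosome 3, 16183212 to 16217037, plus strand), which acts with the other YTHDF proteins on translation and decay, was at 129.2, 121.0 and 117.1 CPM in noncystic and at 113.7, 110.0 and 106.9 in cystic Pkd2 +/+ kidneys. All cystic mice were below all noncystic mice, with a log2 fold change of -0.15 (SE 0.06, unadjusted p = 0.0326, adjusted p = 0.0913, edgeR's quasi-likelihood test). It passed the threshold in 5 of the 21 alternative fits and crossed 0 with library totals, at 0.01.

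The other YTHDF genes leaned the opposite way. Ythdf2 (chromosome 4, 132184912 to 132212303, minus strand), whose protein recruits the CCR4-NOT deadenylase, was at 40.8, 44.3 and 36.1 against 41.6, 47.7 and 46.0 CPM, a log2 fold change of 0.16 (95% interval -0.02 to 0.34). Ythdf1 (chromosome 2, 180904377 to 180920949, minus strand) was at 46.8, 55.9 and 49.5 against 54.9, 57.8 and 54.95, a log2 fold change of 0.14 (95% interval -0.02 to 0.30). In both, 1 noncystic mouse, mouse 20, reached into the cystic range.

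For the nuclear reader Ythdc1 (chromosome 5, 86804221 to 86836659, plus strand) the values were 96.5, 88.9 and 87.3 CPM in noncystic and 86.5, 84.4 and 84.1 in cystic Pkd2 +/+ kidneys. The log2 fold change was -0.10 (95% interval -0.27 to 0.07), without overlap and with an interval that included 0. Ythdc2 (chromosome 18, 44827746 to 44889724, plus strand) was the lowest of the 10 genes, at 11.3, 9.35 and 9.61 against 11.8, 12.9 and 11.0 CPM. Its log2 fold change of 0.24 had the widest interval (-0.06 to 0.54), and mouse 19 overlapped the cystic mice.

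**Figure D2:**
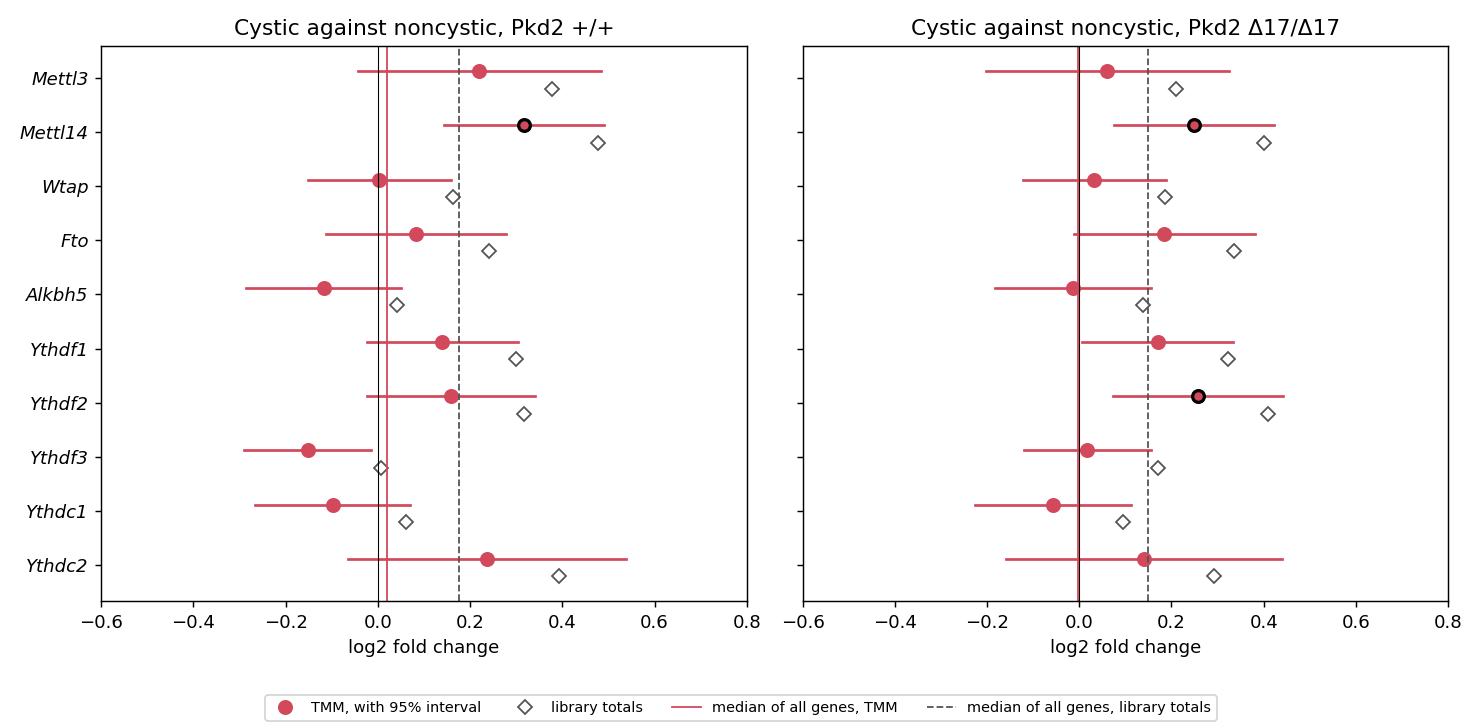
Log2 fold change (x axes) of each gene (y axis) between cystic and noncystic kidneys with Pkd2 +/+ (left) and Pkd2 Δ17/Δ17 (right). Dots with lines are the TMM-scaled estimate and its 95% interval, with a black rim where the adjusted p was under 0.05 (Mettl14 left, Mettl14 and Ythdf2 right). Diamonds are the estimates with library totals, and vertical lines the median of all genes under each scaling, 0.02 and 0.18 on the left.

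How the libraries are scaled moved all of these values together. With library totals in place of TMM factors, the median of all genes shifted by 0.157 on the log2 scale, to 0.18, and 71.7% of the genes called were higher in cystic kidneys, against 54.4% with TMM. The 10 genes moved with it: their median became 0.27, all 10 had values above 0, and 5 were called, Mettl3, Mettl14, Fto, Ythdf1 and Ythdf2, where 35.4% of all genes were. Relative to the median of all genes the 10 genes stood at 0.0914 with TMM and 0.0927 with totals, and 6 of 10 were above it under both. Alkbh5, Ythdf3 and Ythdc1 were below 0 with TMM and above 0 with totals (0.04, 0.01 and 0.06).

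Ratios of counts within a mouse do not depend on the scaling. Of 7 ratios examined, Mettl3 to Wtap, Mettl3 to Alkbh5 and Ythdc2 to Ythdc1 did not overlap between cystic and noncystic Pkd2 +/+ mice. They are given as values with no test. The share of all gene pairs whose ratio does so was not computed, and of single genes 41.7% did not overlap in this comparison. The log2 ratio of Mettl3 to Alkbh5 was -2.87, -3.18 and -2.90 in mice 19 to 21 and -2.49, -2.78 and -2.65 in mice 25 to 27, higher in every cystic Pkd2 +/+ mouse. With Δ17/Δ17, this ratio overlapped between noncystic (-3.10 to -2.56) and cystic mice (-2.86 to -2.69). The ratio of Mettl3 to Wtap overlapped there as well (-2.00 to -1.69 against -2.01 to -1.65). With Pkd2 +/+ its difference of 0.22 became 0.09 without mouse 20. The overlap of Mettl3 with Tox4 leaves part of both ratios uncertain.

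The ratio of Ythdf3 to Ythdf2 was lower in cystic kidneys with both Pkd2 genotypes. Its mean went from 1.60 ± 0.13 to 1.29 ± 0.14 (SD, n = 3) with Pkd2 +/+, where mouse 20 at 1.449 lay just below mouse 25 at 1.451. With Δ17/Δ17 the mean went from 1.67 ± 0.02 to 1.43 ± 0.05 with no overlap. The ratio of Ythdc2 to Ythdc1 went from -3.18 ± 0.08 to -2.84 ± 0.12 with Pkd2 +/+, also with no overlap. It overlapped with Δ17/Δ17 (-3.03 to -2.89 against -2.98 to -2.59). The ratio of Mettl3 to its partner Mettl14 overlapped between cystic and noncystic mice with both genotypes.

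**Figure D3:**
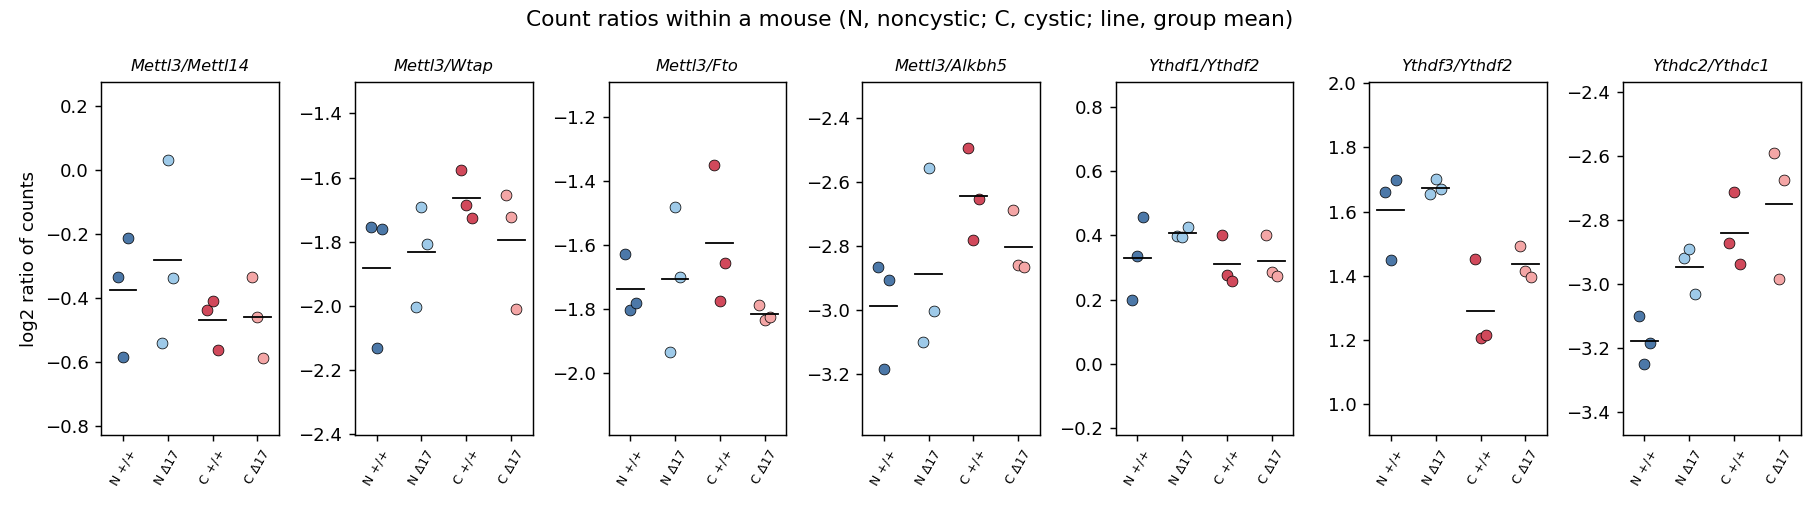
Log2 ratio of the counts of 2 genes in the same mouse (y axes, each spanning the same height) in the 4 groups (x axes; N, noncystic; C, cystic; +/+ and Δ17 are the Pkd2 genotypes). Dots are mice and lines are group means (n = 3). Ythdf3/Ythdf2 was lower in cystic kidneys, with means of 1.29 and 1.43 against 1.60 and 1.67.

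The same question was asked with the Pkd2 motif deleted. Between cystic and noncystic Δ17/Δ17 kidneys, Mettl14 and Ythdf2 rose and none of the 10 genes fell, where 23% of all genes tested passed. The median of the 10 genes was 0.10, against 0.00 for all genes. Mettl14 was at 25.3, 23.9 and 26.2 CPM in noncystic and at 29.8, 29.9 and 29.9 in cystic mice. Its log2 fold change was 0.25 (SE 0.08, adjusted p = 0.0376, edgeR's quasi-likelihood test).

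Ythdf2 was at 37.1, 36.7 and 37.5 CPM in noncystic and at 43.4, 44.6 and 45.0 in cystic Δ17/Δ17 mice, a log2 fold change of 0.26 (SE 0.09, adjusted p = 0.0405, edgeR's quasi-likelihood test). The groups did not overlap for either gene, and both calls lie near the threshold. Mettl14 lost its call in 13 and Ythdf2 in 12 of the 21 alternative fits, with adjusted p-values of up to 0.159 and 0.128. Neither was called with Xist, which stands for sex, as a covariate. Fto and Ythdf1 also did not overlap, with log2 fold changes of 0.18 and 0.17 (adjusted p = 0.18 and 0.138, edgeR's quasi-likelihood test). In all, 4 of the 10 genes did not overlap in this comparison, close to the 37.9% of all genes that did not. Mettl3 differed by 0.06 (95% interval -0.20 to 0.33), and its mice overlapped.

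Averaged over both Pkd2 genotypes, with 6 mice against 6, 3 genes rose: Mettl14 by 0.28 on the log2 scale (SE 0.06, adjusted p = 0.00082, edgeR's quasi-likelihood test), Ythdf2 by 0.21 (adjusted p = 0.012) and Ythdf1 by 0.15 (adjusted p = 0.0342). The share of all genes called was 38.2%. The median of the 10 genes was 0.14, and that of all genes 0.00. Mettl14 was the only one of the 10 whose 6 cystic mice all lay above its 6 noncystic mice, a separation found in 12.3% of all genes. The Mettl14 call held in all 20 alternative fits. Ythdf2 was not called without mouse 21 (adjusted p = 0.057, edgeR's quasi-likelihood test), and Ythdf1 was not called in 10 of the 20 alternatives, 7 of which left out 1 mouse. Mettl3 was at 0.14 (95% interval -0.05 to 0.33) and Fto at 0.13 (95% interval -0.01 to 0.27). Fto was called without mouse 25 (adjusted p = 0.0417, edgeR's quasi-likelihood test).

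None of the 10 genes passed the test for the deletion of the Pkd2 motif in cystic kidneys. Over all genes 2.23% passed the threshold, and none of the 10 had an unadjusted p under 0.05, which 14.3% of all genes had. DESeq2 and limma also called none. The log2 fold changes ran from -0.10 for Mettl14 to 0.15 for Ythdc2, with a median of 0.05 against 0.00 for all genes. The smallest adjusted p was 0.427, for Ythdf3 (edgeR's quasi-likelihood test).

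Mettl14 and Ythdf3 separated the cystic groups, where 19% of all genes did. Mettl14 was at 33.0, 30.3 and 32.5 CPM with Pkd2 +/+ and at 29.8, 29.9 and 29.9 with Δ17/Δ17, slightly lower in all 3 deleted mice, with a 95% interval of the log2 difference of -0.27 to 0.08. Ythdf3 was at 113.7, 110.0 and 106.9 against 122.3, 118.8 and 118.4, higher in all 3 deleted mice, with a log2 fold change of 0.12 (95% interval -0.02 to 0.26). These comparisons share the cystic Pkd2 +/+ mice with the comparison against noncystic kidneys, in which Mettl14 was at 0.32 and Ythdf3 at -0.15.

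For Mettl3 the deletion gave -0.08 (95% interval -0.35 to 0.18) in cystic kidneys, and for Fto 0.13 (95% interval -0.06 to 0.33). These intervals leave room for differences of the size seen between cystic and noncystic mice. In cultured Pkd1 RC/- cells, the paper reports lower Mettl3 expression with the Pkd2 motif deleted. Its methods list a Mettl3 antibody, so that result is of other material and by another measure than the RNA of whole kidney here. Alkbh5, which holds the 7-base match to the miR-17 seed, was at 0.07 (95% interval -0.10 to 0.24). The macrophage marker sum was 148.9 to 180.2 CPM in cystic Δ17/Δ17 mice, below the 186.5 to 244.0 in cystic Pkd2 +/+ mice, and 2 of 4 of these markers fell. The thick ascending limb marker sum was 3048 to 3089 CPM against 1493 to 2187, and 2 of 4 of its markers rose. The proximal tubule sum was 2798 to 4023 against 2090 to 3261, with 1 of 5 markers higher. In the other 10 marker lists no gene passed for the deletion, and the part of these differences in the values of the 10 genes was not tested.

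In noncystic kidneys none of the 10 genes passed for the deletion either, and 0.00406% of all genes were called. None had an unadjusted p under 0.05, where 6.31% of all genes had, and DESeq2 and limma called none. The values ran from -0.12 for Ythdf2 to 0.25 for Ythdc2, with a median of -0.01. Ythdc2 had the widest interval (-0.06 to 0.55), with 11.5, 13.8 and 10.6 CPM in deleted mice against 11.3, 9.35 and 9.61. Averaged over cystic and noncystic kidneys none was called either, against 0.442% of all genes, with values of -0.07 to 0.20 and no unadjusted p under 0.05, where 14.2% of all genes had one.

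The difference between the cystic effects with and without the motif, the interaction, was called for none of the 10 genes by edgeR's quasi-likelihood test, DESeq2 or limma, and no unadjusted p was under 0.05. Over all genes 0.0122% passed, and 8.33% had an unadjusted p under 0.05. The smallest adjusted p was 0.664, for Ythdf3, whose cystic effect was 0.17 higher with the deletion (95% interval -0.02 to 0.36). For Mettl3 the difference was -0.16 with an interval of -0.53 to 0.21.

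**Figure D4:**
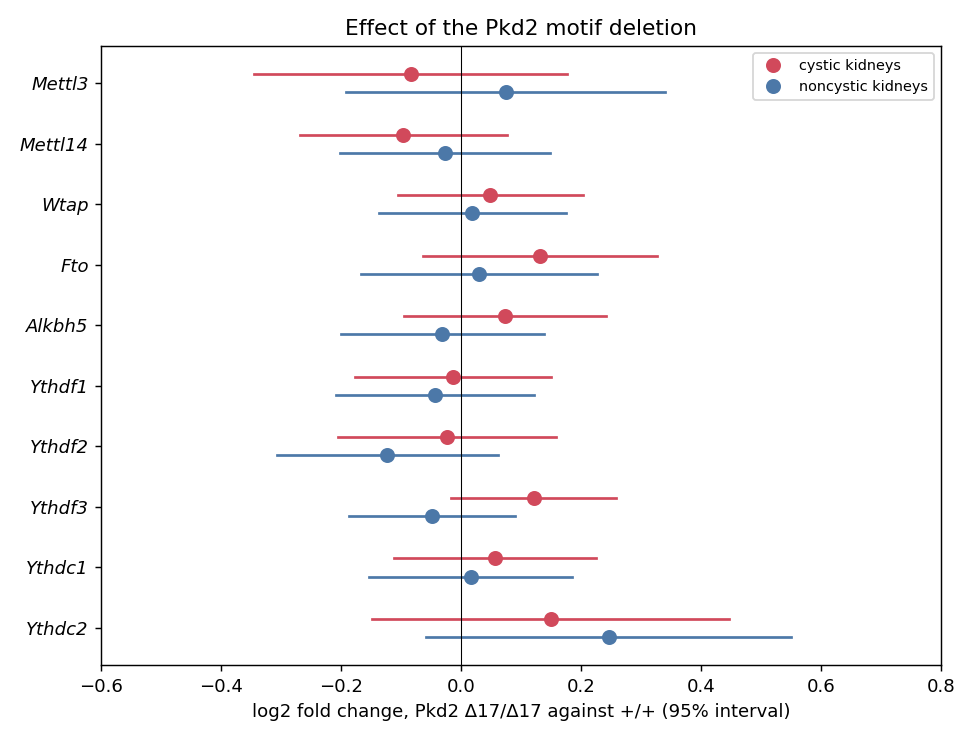
Log2 fold change of the Pkd2 motif deletion (x axis, Δ17/Δ17 against +/+) for each gene (y axis) in cystic (red) and noncystic (blue) kidneys, with 95% intervals. All 20 intervals include 0, and the values run from -0.12 to 0.25.

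Genes that work beside the 10 were described from lists of the same pathway. In cystic against noncystic Pkd2 +/+ kidneys, where 31.1% of all genes passed with a median of 0.02, 2 of the 5 other subunits of the methyltransferase complex rose and none fell, with a median of 0.19. Rbm15b, an RNA-binding adaptor of the complex, was at 34.0, 34.3 and 37.1 CPM in noncystic and at 51.1, 56.6 and 55.4 in cystic kidneys. All cystic mice lay far above, with a log2 fold change of 0.63 (SE 0.08, adjusted p = 1.41e-05, edgeR's quasi-likelihood test). It was also higher with Δ17/Δ17, by 0.77 (adjusted p = 5.4e-06, edgeR's quasi-likelihood test). All 6511 bases of Rbm15b lie within the gene Manf on the same strand, and 14 of them are exonic in both. Reads from unspliced Manf RNA could be counted for Rbm15b, and their part in its value was not tested.

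Virma, the large scaffold subunit, went from 46.0, 46.1 and 50.2 to 58.6, 61.6 and 57.0 CPM, a log2 fold change of 0.32 (adjusted p = 0.00217, edgeR's quasi-likelihood test). With Δ17/Δ17 it was at 0.19 and did not pass (adjusted p = 0.0612, edgeR's quasi-likelihood test). The paralogue of Rbm15b, Rbm15, did not pass, at -0.14 (95% interval -0.43 to 0.15). Both Rbm15b and Virma were called in all 21 alternative fits, Rbm15b at 0.59 to 0.79 and Virma at 0.27 to 0.47.

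Among 6 enzymes or cofactors for other N6-methyladenosine marks, only Mettl4 rose, by 0.48 (SE 0.16, adjusted p = 0.0274, edgeR's quasi-likelihood test), with a list median of 0.16, so 1 of 6 passed against the 31.1% of all genes. It was a low gene, at 5.71, 5.82 and 6.21 against 8.48, 9.25 and 6.97 CPM, and the call was lost in 8 of 21 alternatives, leaving out mouse 19, 20, 21, 25 or 26 among them (adjusted p up to 0.106). Of 8 other m6A-binding proteins, 2 rose, again against 31.1% of all genes called, with a median of 0.16. Prrc2a went from 242.6, 202.1 and 294.8 to 464.0, 432.5 and 443.8 CPM, a log2 fold change of 0.86 (SE 0.11, adjusted p = 1.58e-05, edgeR's quasi-likelihood test).

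Igf2bp1, which stabilises bound mRNAs and is mostly a fetal gene, went from 8.67, 8.50 and 5.80 to 11.5, 10.7 and 12.3 CPM. Its log2 fold change was 0.59 (adjusted p = 0.0193, edgeR's quasi-likelihood test), not called without mouse 21 (0.41, adjusted p = 0.117) or mouse 27 (0.54, adjusted p = 0.0662). Both Prrc2a and Igf2bp1 were also called with Δ17/Δ17, at 0.54 and 0.62 (adjusted p = 0.0018 and 0.0206, edgeR's quasi-likelihood test).

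Of 9 factors of the decay of m6A-marked RNA, 2 rose and 1 fell, a share close to the 31.1% of all genes, with a median of 0.09. The CCR4-NOT subunit Cnot3 rose by 0.53 and the deadenylase Cnot6 by 0.32 (adjusted p = 0.000731 and 0.0041, edgeR's quasi-likelihood test). Of Cnot3 exonic bases, 6.07% overlap Leng1 on the opposite strand. Rida, which links YTHDF2 to RNase P and is also a deaminase of proximal tubule and liver, went from 782.0, 765.0 and 769.2 to 342.2, 284.6 and 306.4 CPM. It fell by 1.31 on the log2 scale (SE 0.10, adjusted p = 7.79e-08, edgeR's quasi-likelihood test), while the summed proximal tubule markers went from a median of 6151 to 2768 CPM. The part of the tubule in the Rida value was not tested.

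Of 11 genes for enzymes that make and recycle SAM, the methyl donor, or for their partners, 5 fell, 1 rose and 5 did not pass, beside 31.1% of all genes called, with a median of -0.24. Adenosine kinase Adk, which clears adenosine, went from 136.0, 134.8 and 129.5 to 78.8, 71.7 and 70.7 CPM, a log2 fold change of -0.86 (SE 0.08, adjusted p = 8.63e-07, edgeR's quasi-likelihood test). S-adenosylhomocysteine hydrolase Ahcy went from 189.9, 188.4 and 219.3 to 125.5, 117.7 and 120.7, a change of -0.72 (adjusted p = 1.97e-05, edgeR's quasi-likelihood test). Its relative Ahcyl2 was at -0.64 (adjusted p = 1.14e-05, edgeR's quasi-likelihood test). These 3 were called in all 21 alternative fits, and they fell with Δ17/Δ17 as well.

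The other 2 that fell were Ahcyl1 (-0.29) and Mat2a (-0.32), the SAM synthetase of most tissues. With library totals 3 of the 11 fell and 2 rose, and the median became -0.08. The 1 that rose, the liver-type SAM synthetase Mat1a, did so through mouse 25: it was at 24.1 CPM there, 0.294 and 0.848 in the other cystic Pkd2 +/+ mice, and at most 3.99 in the remaining mice. Without mouse 25 its log2 fold change went from 5.29 to 1.41 (adjusted p = 0.417, edgeR's quasi-likelihood test). Gnmt and Bhmt, other liver-type enzymes of the cycle, were also highest in mouse 25, at 12.8 and 12.04 CPM. Among the markers, the summed proximal tubule genes went down with the list, as given for Rida. Distal convoluted tubule, podocyte, fat and red blood cell markers fell as well, and the part of any of these in the list was not tested.

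With Δ17/Δ17, cystic against noncystic kidneys gave 1 of 5 complex subunits higher, 0 of 6 other methyltransferases, 2 of 8 other readers higher, 1 higher and 1 lower of 9 decay factors, and 4 lower of 11 SAM cycle genes, where 23% of all genes passed. For the deletion in cystic kidneys none of these 39 genes passed edgeR's quasi-likelihood test. Of them, 8 had an unadjusted p under 0.05, where 14.3% of all genes did. Of these, 5 were among the 11 SAM cycle genes, a list with a median of 0.13 and 7 values above 0. The smallest adjusted p was 0.0834, for Trmt112, the activator of several methyltransferases, at -0.37.

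**Figure D5:**
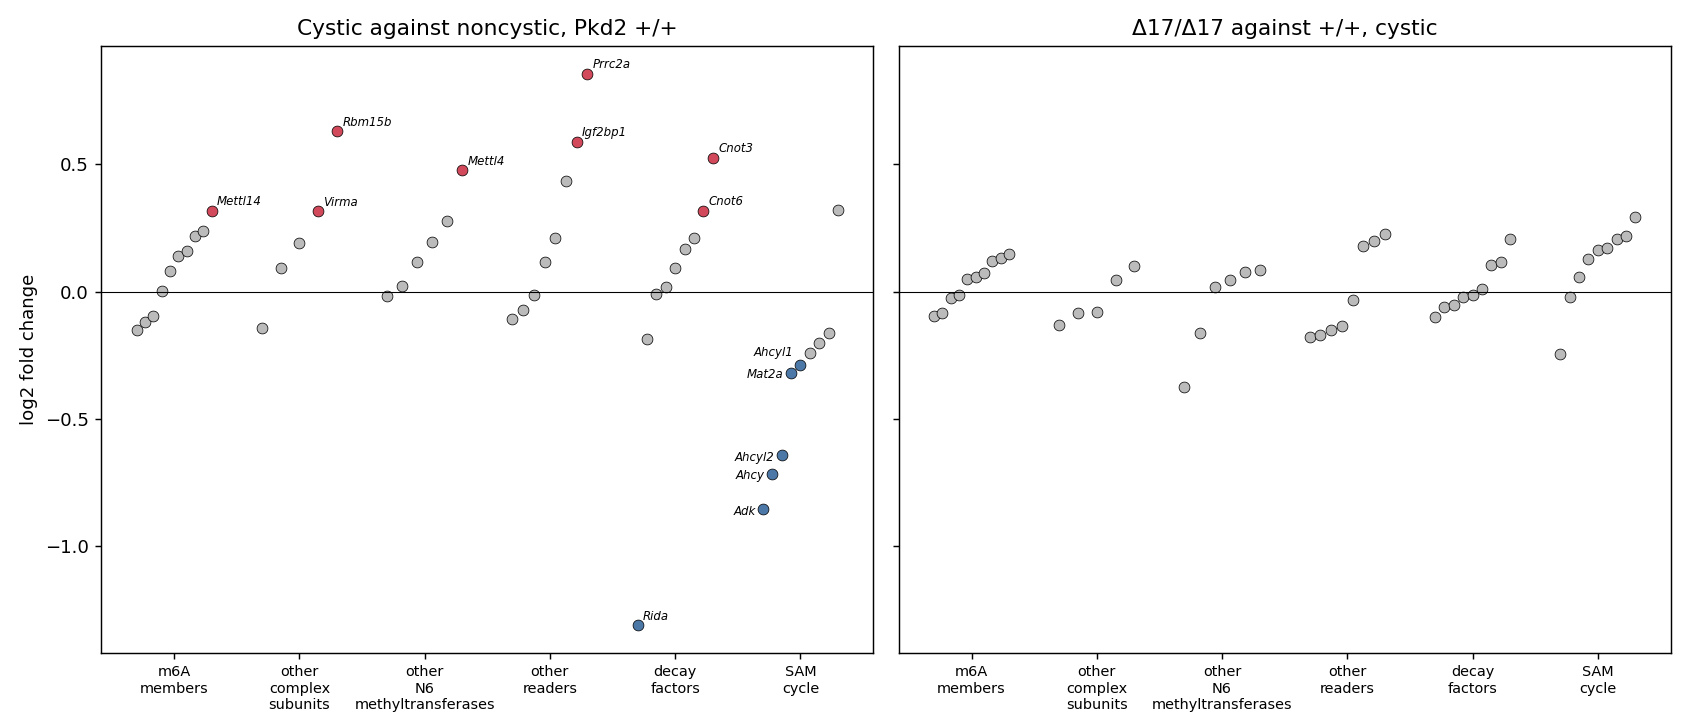
Log2 fold change (y axis) of the 10 genes and of 5 lists of their pathway (x axis) between cystic and noncystic Pkd2 +/+ kidneys (left) and for the motif deletion in cystic kidneys (right). Each dot is a gene, ordered by value within a list, red where higher and blue where lower at an adjusted p under 0.05, grey otherwise. Mat1a (5.29 left, -2.50 right) and Bhmt (1.64 left, -1.89 right), both highest in mouse 25, are left out. The called genes run from -1.31 (Rida) to 0.86 (Prrc2a) on the left, and none is called on the right.

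The 10 genes were also compared across mice of the same group. Over their 45 pairs, the Pearson correlation of log2CPM after removal of group means, over 12 mice, had a median of 0.00782 and ran from -0.670 to 0.595 (Ythdc1 with Ythdc2), values that also share library and depth. Of the 13847 genes whose log2CPM averaged 1 or more, those most like Mettl3 by this measure were Slc22a2 (0.972), Unkl (0.950) and D630008O14Rik (0.941). For Fto they were Mbtps1 (0.966), Hoxd11 (0.965) and Apbb1 (0.952). With group means kept, the values were -0.306, 0.519 and 0.213 for the Mettl3 genes and 0.859, 0.925 and 0.678 for the Fto genes. Each is the highest of many values over 12 mice, and a link to Mettl3 or Fto was not tested.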

How the data were processed

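RNA-seq of whole kidney was analysed for 12 mice in 4 groups of 3, grouped by the sample labels. Per the labels and the study's methods, the authors trimmed reads with Trim Galore 0.6.3, aligned them to GRCm38 with STAR 2.5.3a and deposited gene-level raw counts, which are whole numbers. The strand setting is not given in the sources used here. Rows with no gene name (343, 0.0225% of reads) stayed out of every named result. Total counts were 18800307 to 24453033 per mouse, which with 3 mice gave standard errors of 0.06 to 0.14 on the log2 scale for the 10 genes in the cystic comparisons.

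Counts were tested in R 4.3.3 with edgeR 4.0.16 (quasi-likelihood test, TMM factors, 1 mean per group over all mice, average log2CPM of at least -3, prior count 2), with Benjamini-Hochberg adjustment over all 24642 genes in each of 7 contrasts and a threshold of 0.05. Intervals are 95% intervals of the fit. The test was also run on simulated counts, in which few genes changed, and by more than the 10 genes did here. That run does not show how well differences of the size seen here are found. Levels per kilobase used the longest coding transcript of GENCODE M21, in which 99.93% of the identifiers were found. Alternatives were limma-trend (limma 3.58.1) with library totals and prior count 3, DESeq2 1.42.0, library totals or DESeq2 size factors in edgeR, no filter, at least 10 counts in every mouse, filterByExpr, only the compared groups, Xist as a covariate, and leaving out each mouse. Leaving out a mouse was added for the ratios after seeing the data.

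The 10 genes and all lists were chosen with earlier results of these data known. Named were the 10 genes, Pkd2, from each list at most 3 genes per direction with the smallest adjusted p, and the 3 genes most correlated with Mettl3 and with Fto. Ahcyl1, Mat2a, Gnmt, Bhmt, Rbm15 and Trmt112 were named after their values were seen. Marker genes of 13 cell types or states were summed per mouse. No 2 mice of a group were alike within sampling noise.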

Additional observations from a re-analysis of the deposited data

How the results depend on the processing

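The number of the 10 genes called between cystic and noncystic Pkd2 +/+ kidneys was 1. It became 5 with library totals in edgeR or limma, and 2 (Mettl14 and Ythdf3) with DESeq2, its size factors in edgeR, at least 10 counts in every mouse or filterByExpr. The 5 were not the same genes: edgeR with totals called Fto and not Ythdc2, and limma called Ythdc2 and not Fto. Limma-trend with library totals is the test named in the study's methods. With Δ17/Δ17 it was 2, and became 4 with library totals in edgeR or limma, 1 with DESeq2 or with the compared groups only, and 0 with DESeq2 size factors, no filter or Xist as a covariate. Averaged over the genotypes it was 3, became 7 with library totals in edgeR or limma, and 2 (Mettl14 and Ythdf2) with DESeq2, its size factors in edgeR or no filter. The share of all genes called moved too. In the main fit it was 31.1% with Pkd2 +/+, 23% with Δ17/Δ17 and 38.2% averaged. With library totals in edgeR it was 35.4%, 28.4% and 42.8%, and with DESeq2 size factors in edgeR 30.7%, 22.9% and 37.9%. Leaving out 1 mouse gave 1 to 2, 0 to 2 and 1 to 4. The deletion and interaction counts stayed at 0 in every fit, also without any 1 mouse (0 to 0).

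With library totals in edgeR and limma, Alkbh5 turned to 0.04, 0.14 and 0.09, Ythdf3 to 0.01 and 0.09 (Pkd2 +/+ and the average), and Ythdc1 to 0.06, 0.09 (0.10 in limma) and 0.08, in the order +/+, Δ17/Δ17, average. Wtap with Pkd2 +/+ turned to -0.02 with DESeq2, its size factors and at least 10 counts, and to -0.01 with filterByExpr and the compared groups only. Averaged, Wtap was -0.01 with DESeq2 and its size factors and 0.00 with at least 10 counts. Ythdf3 with Δ17/Δ17 was -0.01 with DESeq2 and its size factors and 0.00 with at least 10 counts. The shift from scaling shows in the median of all genes. The cause of the other moves was not tested.

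Leaving out 1 mouse turned the sign of 21 single-gene values, all of which but Mat1a lay between -0.14 and 0.08. Between cystic and noncystic kidneys these ranged, with Pkd2 +/+, from -0.03 to 0.02 for Wtap and 0.00 to 0.16 for Fto, and with Δ17/Δ17 from -0.06 to 0.17 for Mettl3, -0.01 to 0.07 for Wtap, -0.08 to 0.05 for Alkbh5, 0.00 to 0.03 for Ythdf3 and -0.10 to 0.01 for Ythdc1. Averaged, Wtap ranged from -0.02 to 0.04. For the deletion in cystic kidneys the ranges were -0.04 to 0.01 for Ythdf1, -0.08 to 0.02 for Ythdf2, 0.00 to 0.10 for Rbm15b, -0.06 to 0.13 for Mettl4, -0.24 to 0.00 for Igf2bp1 and -5.10 to 1.37 for Mat1a. In noncystic kidneys they were -0.06 to 0.18 for Mettl3, -0.06 to 0.01 for Mettl14, -0.04 to 0.05 for Wtap, -0.03 to 0.11 for Fto, -0.10 to 0.01 for Alkbh5, -0.10 to 0.02 for Ythdf1 and -0.07 to 0.06 for Ythdc1. No paired analysis was run. Each mouse number occurs in 1 group only, and litter was not used, so littermates within or between groups were not taken into account. Ythdc2, which had the fewest reads, had the widest interval of the 10 genes.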
